A study of Arabidopsis with 6 samples.

Results

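The genes of the Rubisco small subunit and of Rubisco activase were examined in Arabidopsis plants moved from darkness to light. The 5 genes are RBCS1A (AT1G67090), RBCS1B (AT5G38430), RBCS2B (AT5G38420), RBCS3B (AT5G38410) and RCA (AT2G39730). They were taken by locus identifier, and all 5 are among the 19763 genes listed in each library. RNA sequencing had been run on the PCD8 RNAi-21 line, an RNA interference line against PCD8, and on the wild type (WT). Plants of both had 4 days of darkness from plating on MS agar medium. They were sampled without light (0 h) or once lit for 0.5 or 2 h. Among the groups used here none stayed in darkness for those hours, so the light and the added age cannot be told apart. The 6 groups are thus RNAi-21 and WT at each of the 3 times, with 1 library in each, so no level below has a replicate error. RNAi-21 is a single line, and the sources used here do not name the promoter of its construct. The level of PCD8 is not analysed here, so the RNAi-21 labels have no check from the target transcript.

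Rubisco fixes carbon dioxide in the first step of the Calvin cycle. Its large subunit is made in the chloroplast, while its small subunit is encoded in the nucleus by the RBCS family, made in the cytosol and imported. RCA is the stromal AAA+ protein that frees Rubisco active sites of bound sugar phosphates. In plants, RBCS and RCA are known as light-induced nuclear genes, and greening of a dark-grown seedling includes the build-up of their products. RBCS1B, RBCS2B and RBCS3B are neighbouring loci in the RefSeq gene table, and the RBCS genes are near-identical copies. How shared reads were divided among them is not given, so the separate values of the family are uncertain and summed values are given beside them.

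Values were read as FPKM, which is scaled for transcript length and library size. The FPKM summed to 757504 to 891009 per library. The tables hold no read counts, so the depth of each library is unknown. The tissue is labelled leaf, but root endodermis markers were among the stronger transcripts in all 6 libraries. CASP1, a Casparian strip protein, stood between 371 and 491 FPKM, and the 9 listed root markers summed to 923 to 1268 FPKM. The 6 listed aerial epidermis and mesophyll markers summed to 28.9 to 39.3 FPKM. None of them was at 0, but 1 to 3 of them were below 1 FPKM in each library. Seed storage and oil body markers stood apart in 1 library, WT at 0.5 h. The 9 listed members summed to 222 FPKM there, against 6.94 to 52.5 FPKM in the other 5 libraries. These libraries are bulk RNA, in which fewer cells of a type and less RNA per cell cannot be told apart.

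RBCS1A, the most abundant small subunit transcript, was already strong in the dark. Its level was 1765, 1463 and 2312 FPKM at 0, 0.5 and 2 h of light in RNAi-21, against 1630, 2106 and 1933 FPKM in WT. The lowest and the highest of the 6 values both came from RNAi-21, at 0.5 h and 2 h, and they differ by 1.58-fold. RBCS1A ranked between 26 and 42 among all listed genes in the 6 libraries.

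The tandem genes RBCS2B and RBCS3B came next and had nearly equal levels in the dark. RBCS3B was at 320, 237 and 631 FPKM at 0, 0.5 and 2 h in RNAi-21, against 328, 370 and 617 FPKM in WT. RBCS2B was at 285, 189 and 305 FPKM in RNAi-21, against 313, 313 and 323 FPKM in WT. Both had their lowest value in RNAi-21 at 0.5 h. After 2 h RBCS3B stood well above its dark level in both genotypes, while RBCS2B was near its dark level. The ratio of RBCS3B to RBCS2B was 1.12, 1.26 and 2.07 at 0, 0.5 and 2 h in RNAi-21, against 1.05, 1.18 and 1.91 in WT.

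RBCS1B was the weakest of the family and had the widest range. It was at 7.02, 8.15 and 148 FPKM at 0, 0.5 and 2 h in RNAi-21, against 4.90, 7.57 and 106 FPKM in WT. The 4 values from the dark and from 0.5 h lie close together, and both 2 h values lie far above them. Its rank among the listed genes lay between 10598 and 12677 at 0 and 0.5 h, and was 1117 in RNAi-21 and 1483 in WT after 2 h. At 0 and 0.5 h its level was 1.49% to 3.43% of that of RBCS3B. A small share of reads from that neighbour could weigh on those values, and this was not tested.

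RCA was at 109, 97.8 and 589 FPKM at 0, 0.5 and 2 h in RNAi-21, against 120, 150 and 565 FPKM in WT. At 0.5 h it was 0.893 times its dark level in RNAi-21 and 1.25 times in WT, and at 2 h it was several-fold above that level in both. In every library at 0 and 0.5 h the order of levels was RBCS1A, RBCS3B, RBCS2B, RCA, RBCS1B. After 2 h RCA had passed RBCS2B in both genotypes and came close to RBCS3B, at 589 against 631 FPKM in RNAi-21 and 565 against 617 FPKM in WT. With 1 library per group, no spread is available to say which neighbours in this order differ.

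**Figure D1:**
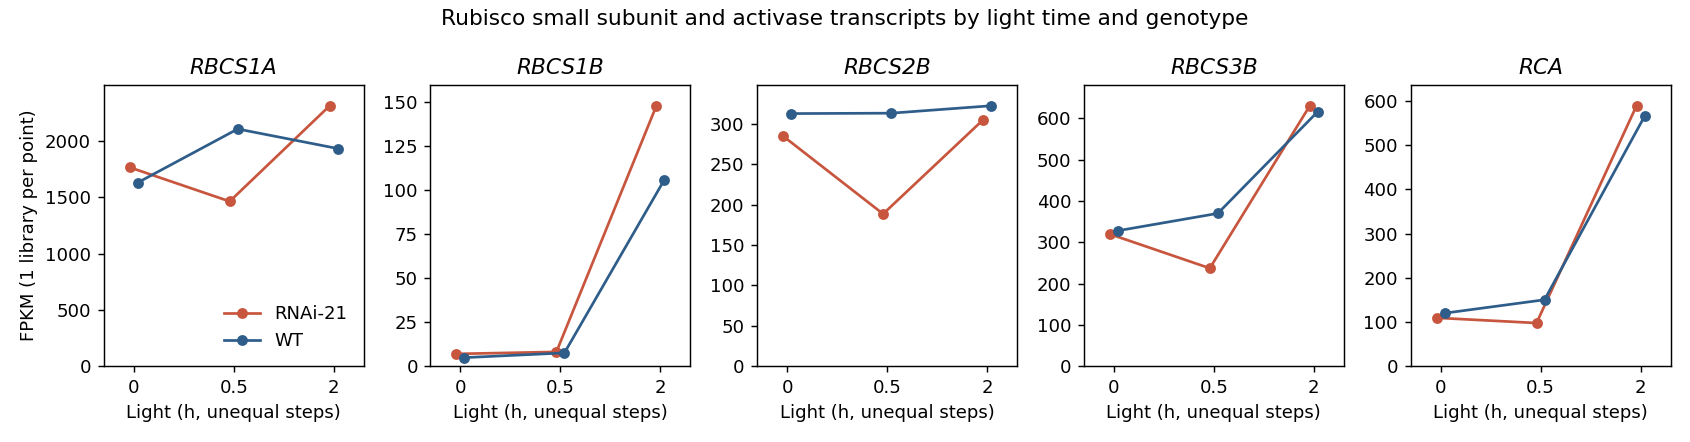
Level of each gene (FPKM, linear axes from 0) against hours of light, with 1 library per point, RNAi-21 in red and WT in blue. RBCS1B and RCA are low until 0.5 h and high at 2 h, RBCS1A is at 1463 FPKM or more in all 6 libraries, and RBCS1A, RBCS2B, RBCS3B and RCA have their lowest value in RNAi-21 at 0.5 h.

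Summed over the 4 genes, the RBCS pool was 2377, 1897 and 3396 FPKM at 0, 0.5 and 2 h in RNAi-21, against 2276, 2797 and 2978 FPKM in WT. The pool after 2 h was 1.43 times the dark pool in RNAi-21 and 1.31 times in WT. Its make-up at 2 h differed from that in the dark in the same direction in both genotypes. RBCS1A made up 74.3%, 77.1% and 68.1% of the pool at 0, 0.5 and 2 h in RNAi-21, against 71.6%, 75.3% and 64.9% in WT. RBCS3B made up 13.5% of the dark pool and 18.6% of the 2 h pool in RNAi-21, and 14.4% and 20.7% in WT. The share of RBCS1B was likewise higher at 2 h, with 0.295% and 4.36% in RNAi-21 and 0.215% and 3.56% in WT. The share of RBCS2B was lower at 2 h, with 12.0% in the dark and 8.98% at 2 h in RNAi-21, and 13.7% and 10.8% in WT. Relative to RCA, the pool was 21.7, 19.4 and 5.77 times its level at 0, 0.5 and 2 h in RNAi-21, against 19.0, 18.6 and 5.27 times in WT. The ratio at 2 h was thus lower than at 0 and 0.5 h in both genotypes.

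**Figure D2:**
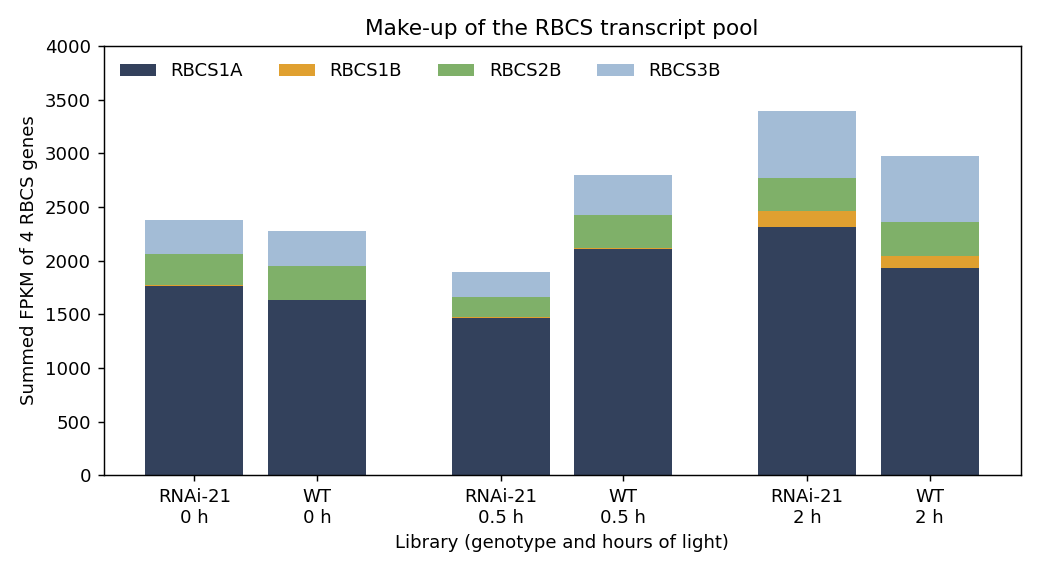
Summed FPKM of the 4 RBCS genes in each library, with RNAi-21 left of WT at each light time and the stacked segments giving each gene's part. RBCS1A fills 64.9% to 77.1% of every bar, RBCS1B shows as a band only at 2 h, and the shortest bar is RNAi-21 at 0.5 h with 1897 FPKM.

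The light effect was tested over both genotypes in 1 limma fit across the 18441 genes that reached an FPKM of 1 in some library. The fit was on log2(FPKM + 1) with additive terms for light time and for genotype. It takes the genotypes in place of replicates, so its error rests on how far light effects differed between them. The error of each gene is also drawn toward the trend over all genes tested. After 2 h, 3 of the 5 genes rose: RBCS1B, RCA and RBCS3B. Of all genes tested, 17.1% rose in this comparison. RBCS1B rose by 4.20 ± 0.13 on the log2 scale (SE over 6 libraries, adjusted p = 1.8e-05 in limma), and it was higher in 2 of 2 genotypes. That is 18.3-fold in FPKM + 1, while its FPKM was 21.1-fold higher in RNAi-21 and 21.6-fold higher in WT. RCA rose by 2.32 ± 0.17 (adjusted p = 0.000101, limma). RBCS3B rose by 0.94 ± 0.18 (adjusted p = 0.00704, limma), which is 1.92-fold in FPKM + 1.

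RBCS1A, which carried most of the small subunit transcript in the dark, and RBCS2B did not pass at 2 h. RBCS1A had a light effect of 0.32 with a 95% confidence interval of -0.19 to 0.82 (adjusted p = 0.302, limma), and RBCS2B one of 0.07 with an interval of -0.34 to 0.49 (adjusted p = 0.791, limma). The intervals thus include a change of RBCS1A of up to 0.82. With library totals equalised after leaving out organelle-encoded genes, the RBCS2B effect turned to -0.01. That scaling put the median of all genes at -0.19 for 2 h against 0 h in RNAi-21, against -0.04 as deposited. Taken as 1 feature, the tandem genes RBCS1B, RBCS2B and RBCS3B rose by 0.76 ± 0.19 at 2 h (adjusted p = 0.0217, limma). This sum depends less than the separate values on how reads were divided among those 3 genes. How reads shared with RBCS1A were handled is not given. Here too 17.1% of all features rose.

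By single libraries, the 2 h responses of the genotypes lay close together. RBCS1B was higher than in the dark by 4.22 in RNAi-21 and 4.18 in WT on the log2(FPKM + 1) scale. For RCA the differences were 2.42 in RNAi-21 and 2.23 in WT, and for RBCS3B they were 0.98 and 0.91, just under the 2-fold call of 1. RBCS1A differed by 0.39 in RNAi-21 and 0.25 in WT, and RBCS2B by 0.10 in RNAi-21 and 0.04 in WT. With totals equalised, RBCS1A differed by 0.22 in RNAi-21 and 0.26 in WT, and the RBCS2B value in RNAi-21 turned to -0.07, against 0.05 in WT. Thus 2 of 5 genes were at least 2-fold higher in each genotype, where 8.85% of all genes in RNAi-21 and 7.8% in WT were 2-fold higher. With median-ratio scaling RBCS3B in RNAi-21 came to 1.03, which makes 3 of 5 there. As deposited, the RNAi-21 response exceeded the WT response by 0.04 to 0.19 for the 5 genes. This direction depends on the scaling and has no test. With totals equalised the RNAi-21 response was the smaller one for all but RCA, with RBCS1B at 4.05 in RNAi-21 and 4.19 in WT, RBCS3B at 0.81 and 0.92, and RCA at 2.25 and 2.24. The RBCS pool likewise differed between 2 h and 0 h by 0.51 in RNAi-21 and 0.39 in WT as deposited, and by 0.35 and 0.40 with totals equalised. Against the 0.5 h libraries, 3 of 5 genes were 2-fold higher at 2 h in RNAi-21, where 6.49% of all genes were, and 2 of 5 in WT, where 6.68% were. The further gene in RNAi-21 was RBCS3B, at 1.41 in RNAi-21 and 0.73 in WT.

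For RBCS1B, RCA and RBCS3B, most of the 2 h response came after 0.5 h. The RBCS pool in WT was higher by 0.30 on the log2 scale at 0.5 h than at 0 h, and by 0.09 at 2 h than at 0.5 h. For RNAi-21 these single-library differences were -0.33 and 0.84. In the limma fit, the 2 h levels against the 0.5 h levels rose by 3.83 ± 0.13 for RBCS1B (adjusted p = 3.4e-05), by 2.24 ± 0.17 for RCA (adjusted p = 0.000225) and by 1.07 ± 0.18 for RBCS3B (adjusted p = 0.00557), while RBCS1A and RBCS2B did not pass. In this comparison 15.2% of all genes rose. None of the 5 genes passed for 0.5 h against 0 h, where 2.71% of all genes passed in either direction. Only RBCS1B had an unadjusted p under 0.05 there, with an effect of 0.36 ± 0.13 and an adjusted p of 0.319 in limma. That contrast averages the genotypes, whose single-library responses at 0.5 h had opposite signs for RBCS1A, RBCS3B and RCA. It is thus not a test of the early response of either genotype.

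**Figure D3:**
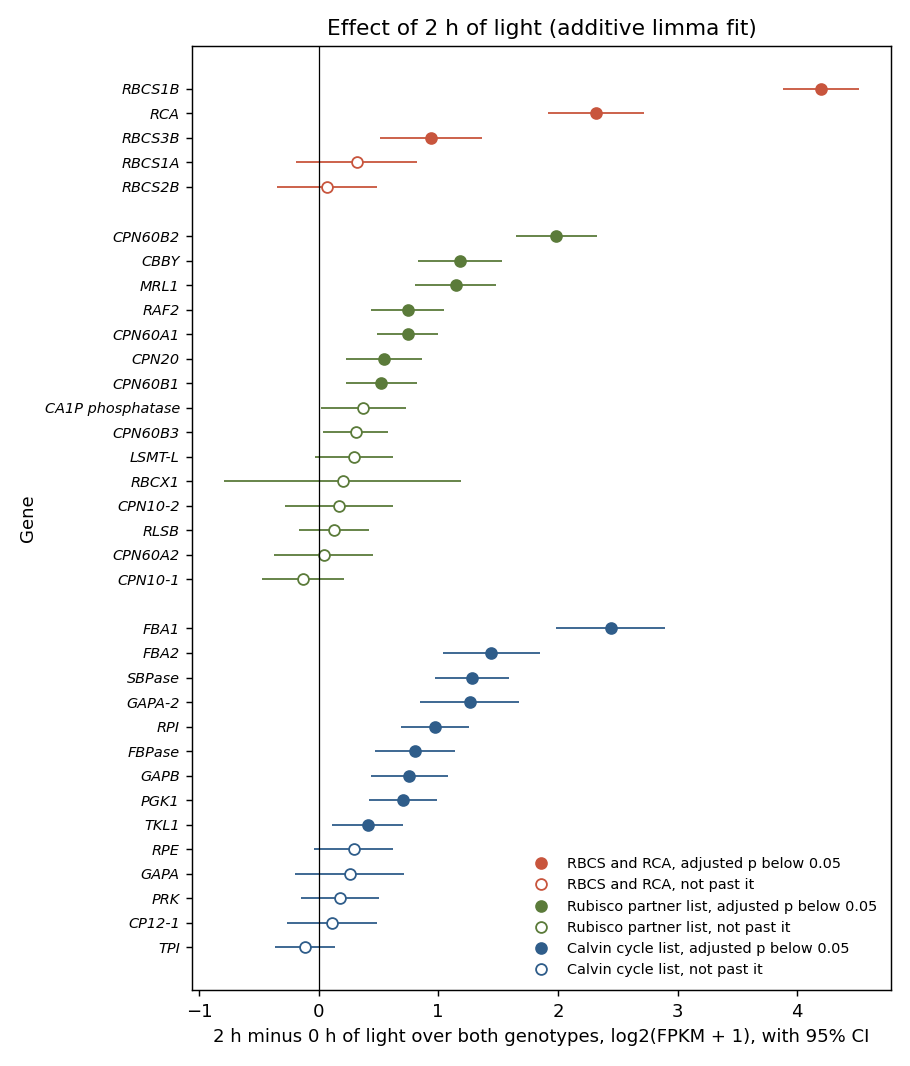
Effect of 2 h of light over both genotypes (difference on log2(FPKM + 1), with 95% confidence intervals from the additive limma fit) for RBCS and RCA in red, the Rubisco partner list in green and the Calvin cycle list in blue. Filled points have an adjusted p below 0.05: RBCS1B, RCA and RBCS3B, 7 of the 15 partner genes drawn and 9 of 14 Calvin cycle genes, all of them on the side of a rise.

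Transcripts for proteins that assemble and serve Rubisco rose in part over the same 2 h. Of a list of 21 such genes, 17 are in the tables, and rbcL, RBCX2, BSD2 and CPN60B4 are not analysed here. At 2 h 9 of the 17 rose and none fell, with a median effect of 0.52 against -0.03 over all genes tested, of which 17.1% rose. CPN60B2, a beta subunit of the chloroplast chaperonin that folds the large subunit, rose by 1.99 ± 0.14 (adjusted p = 9.8e-05, limma). CBBY (AT3G48420), a phosphatase that destroys an inhibitory sugar phosphate of Rubisco, rose by 1.18. MRL1, a pentatricopeptide repeat protein that stabilises the rbcL transcript, rose by 1.15. RLSB, which binds the rbcL transcript, and LSMT-L, named after the large subunit methyltransferase, had effects of 0.13 and 0.30 that did not pass. None of the 17 passed at 0.5 h, where 2.71% of all genes did, or in the genotype comparison, where 0.168% did.

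In the Calvin cycle list, which serves as a measure of the surrounding pathway, 9 of 14 listed genes rose at 2 h and none fell, where 17.1% of all genes rose. The list's median was 0.73, against -0.03 over all genes. The plastid aldolase gene FBA1 rose by 2.44 ± 0.19 (adjusted p = 0.000133, limma), about as much as RCA, and FBA2 by 1.44. The sedoheptulose bisphosphatase gene SBPase rose by 1.28 and the glyceraldehyde-3-phosphate dehydrogenase gene GAPA-2 by 1.26. Like RBCS1A and RBCS2B, the phosphoribulokinase gene PRK did not pass, with an effect of 0.18, nor did GAPA, with 0.26.

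The step from 0 h to 0.5 h had opposite signs in the genotypes for most of the 5 genes. In RNAi-21, RBCS1A, RBCS2B, RBCS3B and RCA were all below their dark level, with differences of -0.27, -0.59, -0.43 and -0.16 on the log2(FPKM + 1) scale. In WT the same genes were above it or level with it, with differences of 0.37, 0.00, 0.17 and 0.32. RBCS1B was higher than in the dark in both, by 0.19 in RNAi-21 and 0.54 in WT. No gene of the 5 was 2-fold different in either genotype, where 2.69% of all genes in RNAi-21 and 1.91% in WT were. The sign of each RNAi-21 value held under a pseudocount of 0.1, median-ratio scaling and equalised totals, the last of which put RCA at -0.10, and in WT the sign of RBCS2B turned to -0.02 with median-ratio scaling. The RNAi-21 response was below the WT response by 0.64 for RBCS1A, 0.60 for RBCS2B, 0.60 for RBCS3B, 0.48 for RCA and 0.35 for RBCS1B, as sizes on the log2 scale. Among all genes tested, 1.87% to 4.66% had a lower value of that difference than RBCS1A, RBCS2B, RBCS3B and RCA, and 10.1% had a lower one than RBCS1B. With 1 library in each group the difference of the responses cannot be tested. The 0.5 h and 2 h responses of a genotype share its 0 h library. Over the same step the seed markers summed to 13.6 and 31.8 FPKM at 0 and 0.5 h in RNAi-21, against 6.94 and 222 FPKM in WT, and their part in the result was not tested.

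The summed RBCS pool showed the same split. After 0.5 h it was 0.798 times the dark pool in RNAi-21 and 1.23 times in WT. In the Calvin cycle list, 11 of 14 genes were below the dark level in RNAi-21 as deposited, with a median of -0.08. In WT 14 of 14 were above it, with a median of 0.24. The list's medians came to -0.02 in RNAi-21 and 0.31 in WT with totals equalised, against 0.04 and 0.07 over all genes. The RNAi-21 side of the split in this list is thus small and depends on the scaling, and the count of 11 was not recomputed. The partner list did not share this split: 13 of 17 genes were above the dark level in each genotype. Its medians were 0.15 in RNAi-21 and 0.25 in WT, against -0.02 and 0.01 over all genes. For both lists, the share of all genes tested above the dark level was 45.6% in RNAi-21 and 51.8% in WT.

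**Figure D4:**
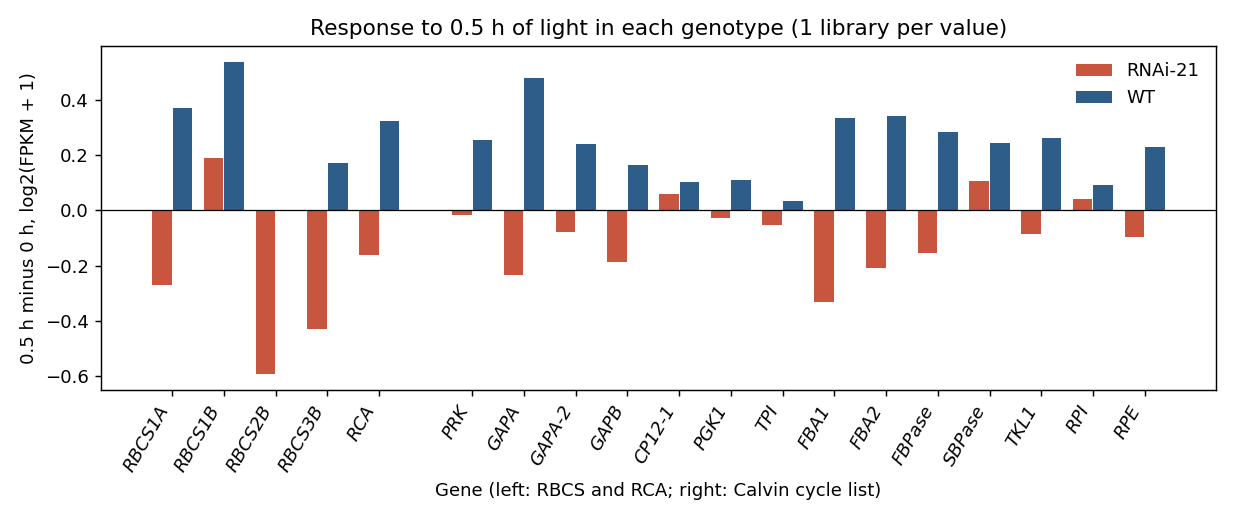
Difference between 0.5 h and 0 h of light (log2(FPKM + 1), 1 library against 1) in RNAi-21 (red, left bar) and WT (blue, right bar) for RBCS and RCA and for the 14 listed Calvin cycle genes. For RBCS1A, RBCS3B and RCA the red bar is below 0 and the blue bar above it, RBCS2B has a red bar at -0.59 and a blue bar near 0, and RBCS1B is above 0 in both.

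Between the genotypes, the dark values differed little. At 0 h RNAi-21 differed from WT by 0.12 for RBCS1A, -0.13 for RBCS2B, -0.04 for RBCS3B and -0.13 for RCA. With totals equalised these values became 0.18, -0.07, 0.03 and -0.07 in the same order, so that of RBCS3B turned sign. RBCS1B was higher by 0.44, at 7.02 FPKM in RNAi-21 and 4.90 FPKM in WT, and 96.5% of all genes tested had a lower difference. None of the 5 was 2-fold different, where 0.564% of all genes were, and the RBCS pool in RNAi-21 was 1.04 times that of WT.

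After 0.5 h of light, 4 of the 5 transcripts were less abundant in RNAi-21 than in WT. RBCS2B differed by -0.73, RBCS3B by -0.64, RCA by -0.62 and RBCS1A by -0.53, which leaves RNAi-21 at 0.602, 0.641, 0.650 and 0.695 times the WT level. RBCS1B differed by 0.09. The differences of those 4 genes lay below those of all but 1.21% to 3.41% of the genes tested. None reached 2-fold, where 1.27% of all genes did. The RBCS pool in RNAi-21 was 0.678 times that of WT. The WT library of this pair is the one in which seed storage markers stood apart, at a sum of 31.8 FPKM in RNAi-21 and 222 FPKM in WT. None of the 9 was at 0, and 3 were below 1 FPKM in RNAi-21 and 0 in WT. The root markers summed to 1137 FPKM in RNAi-21 and 1120 FPKM in WT, and the aerial markers to 31.1 and 32.2 FPKM. The part of the seed markers' difference in these results was not tested. In the same pair the Calvin cycle list had a median of -0.33, against -0.03 over all genes. In that list 13 of 14 genes were lower, led by GAPA at -0.91, and FBA2 was at -0.63. The share of all genes tested that were higher in RNAi-21 was 45.5%.

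After 2 h the same 4 genes were within 0.26 of WT. RBCS1A was higher in RNAi-21 by 0.26, RCA by 0.06 and RBCS3B by 0.03, while RBCS2B differed by -0.08. With totals equalised RCA and RBCS3B turned to -0.05 and -0.08, and RBCS1A and RBCS2B came to 0.14 and -0.19. RBCS1B was higher by 0.48, at 148 FPKM in RNAi-21 and 106 FPKM in WT, with 94.7% of all genes tested below it. None was 2-fold different, where 0.797% of all genes were.

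**Figure D5:**
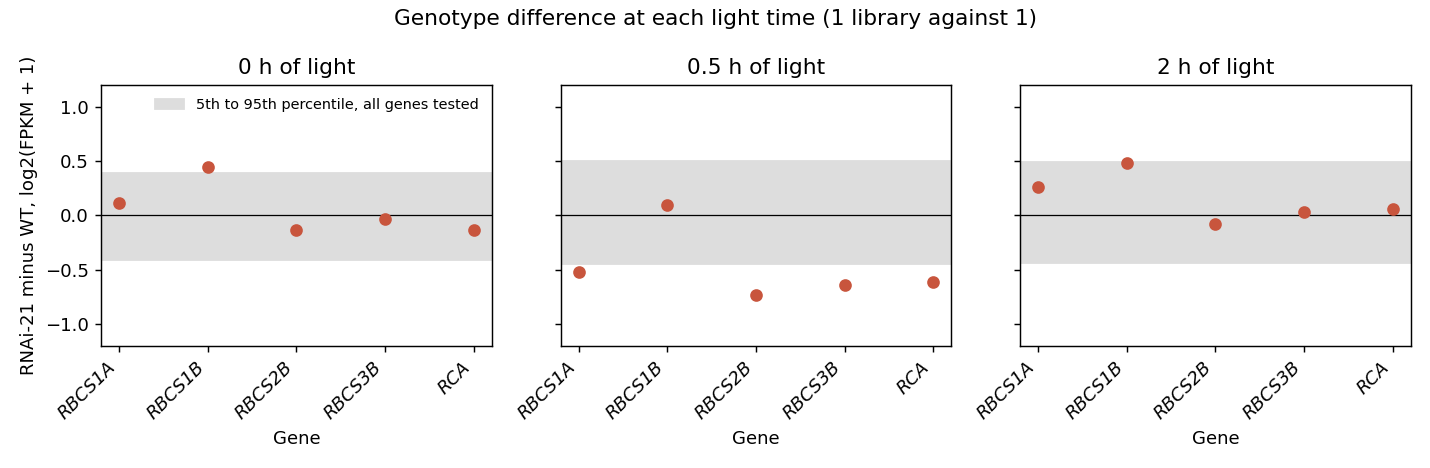
Difference RNAi-21 minus WT (log2(FPKM + 1), 1 library against 1) for each gene at 0, 0.5 and 2 h of light, with the grey band spanning the 5th to 95th percentile of all genes tested. At 0.5 h RBCS1A, RBCS2B, RBCS3B and RCA lie below the band, at -0.53 to -0.73, and at 0 h RBCS1B lies above it at 0.44.

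Over the 3 times together, none of the 5 genes passed for genotype in the limma fit, where 0.168% of all genes did in either direction. The effects were 0.34 ± 0.11 for RBCS1B (adjusted p = 0.302, limma), -0.31 ± 0.14 for RBCS2B (adjusted p = 0.432), -0.23 ± 0.14 for RCA (adjusted p = 0.553), -0.21 ± 0.15 for RBCS3B (adjusted p = 0.605) and -0.05 ± 0.17 for RBCS1A (adjusted p = 0.936). RBCS1B had an unadjusted p under 0.05 and was higher in RNAi-21 at 3 of 3 times. The RBCS2B value was lower in RNAi-21 at 3 of 3 times, and those of RBCS1A, RBCS3B and RCA changed sign between times. Without the 0.5 h libraries the RBCS1A effect was 0.19. An additive fit averages the times, so it is not a test of the 0.5 h difference.

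The 5 genes did not share 1 pattern. As a measure of likeness, the root mean square distance between log2(FPKM + 1) profiles over the 6 libraries was taken, each centred on its own mean. RBCS1A and RBCS2B were closest at 0.20, RBCS1A and RBCS3B were 0.35 apart, and RBCS1B was 1.46 to 1.84 from the other RBCS genes. RCA was nearer to RBCS3B, at 0.61, and to RBCS1B, at 0.88, than to RBCS1A, at 0.94. Among 4857 genes with a symbol and a mean of at least 10 FPKM, those most like RCA were the aldolase FBA1 (0.13), the chloroplast RNA-binding protein CRB (0.14), the photosystem I antenna LHCA1 (0.15), the thioredoxin TRXF1 (0.18) and the sugar transporter SWEET2 (0.19), against a median of 1.1 over these genes. LHCA1, for instance, was at 59.1, 50.2 and 359 FPKM at 0, 0.5 and 2 h in RNAi-21, against 57.9, 65.4 and 319 FPKM in WT. Most like the RBCS pool were the methionine sulfoxide reductase MSRB2 (0.07), the cyclin CYCD3;2 (0.07), the helicase NIH (0.08), the plastid glutamine synthetase GS2 (0.08) and the kinase MKK4 (0.10), where the median gene was 0.34 away. GS2, for instance, was at 143, 131 and 200 FPKM in RNAi-21, against 151, 174 and 199 FPKM in WT.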

How the data were processed

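RNA was measured in 6 libraries, 1 per group, and per the labels' protocols RNA was TRIzol-extracted and sequenced with Illumina chemistry. The submitters' processing notes list HISAT and Bowtie2, with no version. Quantifier, build and annotation: not given in the sources used here. Every deposited value was taken as FPKM computed by the authors. No header names the unit, and a partial table of TPM cannot be told apart from it. Depth is unknown, so no counting interval is given. Symbols came from the RefSeq TAIR10.1 table by locus identifier. No sequences were used here.

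The scale used was log2(FPKM + 1), over the 18441 genes that reached 1 FPKM in any library. Single libraries were compared by size, with a call at 1 on this scale (2-fold) and no test. Light and genotype effects came from 1 additive fit in limma 3.58.1 (R 4.3.3) with a variance trend. It used Benjamini-Hochberg adjustment over all genes and a threshold of 0.05. Its code was run on simulated data with equal, independent errors in all genes, so that run does not check its error in these libraries. The fit has 2 residual and 4.93 prior degrees of freedom, so a gene's error draws more on the trend over all genes than on its own spread. No label says whether libraries came from separate cultures. The p-values rest on departures of these libraries from the additive fit and on that trend, not on a spread between replicates.

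All 5 genes are named. In the partner list 2 genes enter the counts and are not reported here by name. From the partner and Calvin cycle lists up to 4 of the genes with the largest effects were named, and RLSB, LSMT-L, PRK and GAPA at 2 h and FBA2 at 0.5 h after their values were seen. The members and lists were chosen with earlier results of these data known. Alternatives were no filter or a filter of 5, a pseudocount of 0.1, median-ratio scaling, equalised totals without organelle genes, a 4-fold call, leaving out each time, and fits that lack the light time term or the variance trend. Summing the tandem genes was fixed for the 2-fold counts and added for the limma fit after seeing the data. Python 3.11.15, pandas 2.3.3, numpy 2.4.6 and matplotlib 3.10.9 were used.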

Additional observations from a re-analysis of the deposited data

Results flagged for a closer look

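For 4 genes the response to 0.5 h of light had opposite signs in the genotypes, below the dark level in RNAi-21 and above it in WT. The RNAi-21 response minus the WT response was -0.64 for RBCS1A, -0.60 for RBCS2B, -0.60 for RBCS3B and -0.48 for RCA on the log2(FPKM + 1) scale. The WT response of RBCS2B was 0.00, so its sign there carries no weight. Each group holds 1 library, and the difference was not tested.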

How the results depend on the processing

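Results for the 5 genes were recomputed under each alternative. In limma, RBCS1B, RCA and RBCS3B kept their rise at 2 h in 7, 8 and 7 of as many alternatives that gave a value, with effects of 4.12 to 4.39, 2.24 to 2.36 and 0.86 to 0.98. They also kept their rise from 0.5 h to 2 h in every alternative that gave a value. No other light or genotype effect of the 5 genes passed under any alternative run. Of the effects, 2 changed sign, and neither had passed: RBCS2B at 2 h turned to -0.0074 with totals equalised, and the genotype effect of RBCS1A turned to 0.1869 with the 0.5 h libraries left out. The counts of genes at least 2-fold higher changed in 7 cases. With the tandem genes summed, 1 feature in place of 2 genes was higher at 2 h than at 0 h in RNAi-21, and likewise in WT, and 1 in place of 2 was higher at 2 h than at 0.5 h in WT, since RBCS1B no longer stood alone. For 2 h against 0.5 h in RNAi-21, 2 in place of 3 were higher, both with the tandem genes summed and with a 4-fold call. Median-ratio scaling gave 3 in place of 2 for 2 h against 0 h in RNAi-21. With a 4-fold call, 1 gene in place of 2 was higher at 2 h than at 0.5 h in WT, because the threshold is higher. Fits without both libraries of a time have 1 residual degree of freedom, and fits for a light effect that lacked 1 of its times gave no value. The labels carry no replicate numbers, so no pairing beyond light time and genotype was possible. The fit itself sets the genotypes against each other within each light time. Without the light time term the light effects fall into its error. That it then called none of the 5 genes for genotype is therefore a weak check. Unknown depth limits RBCS1B most, whose dark values are the lowest of the 5.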
